A study of Mus musculus with 7 samples.

Results

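The genes of the circadian clock were examined in uterine tissue from female C57BL/6 mice aged 6 weeks. The members were the 10 genes Arntl, Clock, Per1, Per2, Per3, Cry1, Cry2, Nr1d1, Nr1d2 and Dbp, taken by gene symbol from the 23282 rows of the deposited tables, and all 10 passed the filters on low values. The mice had received 100 ng of recombinant human CXCL12, a chemokine, in 30 µl of saline-based solution in one uterine horn, with saline alone in the opposite horn, through an abdominal incision under anaesthesia. The 7 libraries analysed were 2 from saline-infused horns (saline), 2 from horns collected 3 days after CXCL12 (Day 3) and 3 from horns collected 8 days after CXCL12 (Day 8). RNA was read by QuantSeq, which sequences the 3′ ends of polyadenylated transcripts. The labels do not give the day on which the saline horns were collected, nor which horns came from the same animal. The hour of collection is not given in the sources used here. P-values therefore measure the spread between these libraries, which may in part be technical.

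The clock is a feedback loop of transcription that runs in nearly every tissue with a period of about a day. The proteins of Arntl (also called Bmal1) and Clock form a dimer that binds E-boxes and switches on the Per, Cry and Nr1d genes and Dbp. PER and CRY proteins then shut the dimer off, and the nuclear receptors REV-ERBα and REV-ERBβ, encoded by Nr1d1 and Nr1d2, repress Arntl through response elements that they share with the ROR receptors. DBP and its relatives act on D-boxes, which Nfil3 represses. Because of this wiring, Arntl RNA in peripheral tissues peaks at roughly the opposite time of day from Nr1d1 and Dbp, so that the level of Arntl set against that of the Rev-erb, Per and Dbp genes is a simple reading of clock time. Per1 and Per2 are also switched on by glucocorticoids and by other acute signals.

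The loop is known to act through short motifs in the promoters of these genes. Of the 10 members, 9 had an entry in the RefSeq promoter table (GRCm38.p6), which holds a short stretch around each start; Per2 had none. The stretches below are from every member with an E-box, its variant or a D-box before the start. Cry1 carries both E-box forms side by side. Capitals mark the E-box CACGTG, its variant CACGTT (read as AACGTG where it lies on the other strand) and the D-box TTATGTAA. All runs are written 5′ to 3′ on the strand of the gene and none includes an exon of that gene.
Per1, chr11:69098758-69098813, plus strand: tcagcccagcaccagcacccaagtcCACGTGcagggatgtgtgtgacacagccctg
Per3, chr4:151044791-151044895, minus strand: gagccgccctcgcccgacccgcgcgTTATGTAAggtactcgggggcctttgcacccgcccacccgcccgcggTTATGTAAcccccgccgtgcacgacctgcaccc
Cry1, chr10:85185084-85185158, minus strand: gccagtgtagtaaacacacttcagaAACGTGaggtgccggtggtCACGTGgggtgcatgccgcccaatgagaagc
Cry2, chr2:92434205-92434260, minus strand: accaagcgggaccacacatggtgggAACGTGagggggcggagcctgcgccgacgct
Nr1d1, chr11:98775378-98775430, minus strand: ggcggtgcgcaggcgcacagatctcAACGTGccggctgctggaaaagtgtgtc

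The Per1 E-box lies 166 bases before the RefSeq start, the Cry1 motifs 79 and 60 bases before, the Cry2 motif 166 bases before and the Nr1d1 motif 28 bases before. Per3 carries 2 copies of the D-box, 205 and 158 bases before its start. Both strands were searched. Over all 32851 promoters of the table, 7.15% held the E-box, 4.68% its variant and 0.938% the D-box, which among the members was found in Per3 only. The motif AGGTCA, to which ROR and REV-ERB receptors bind, was found in a window of each of Arntl, Clock, Per1 and Nr1d2 and in 16.3% of all promoters. The Arntl match lies after the start. Some members have several windows, while these shares count each promoter singly, so the members cannot be set directly against them. These are matches of letters, and no binding was measured here.

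The 6 libraries deposited as counts held 6908790 to 12308982 reads each, and the log2 table of Day 3 replicate 1 gave 10463116 once undone. At these depths a count of 0 allows up to 0.244 to 0.434 CPM in the count libraries. Such limits cover counting error only. Levels are given as CPM, the reads of a gene in every 1000000 reads of its library. The libraries did not fall into their groups evenly. The table of Day 8 replicate 1 carries Day 3 in its name although its label says Day 8; it was placed by its label, and its log2 levels across genes correlated more closely with the Day 3 libraries (r = 0.947 and 0.948) than with Day 8 replicates 2 and 3 (r = 0.892 and 0.894). Saline replicate 1 correlated with the other libraries at 0.873 to 0.903, while the Day 3 libraries correlated with each other at 0.975. The uterine markers Esr1, Pgr, Hoxa10 and Hoxa11 were present in every library, with a summed level of 756 to 1689 CPM that was highest in saline replicate 1.

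The reading of clock time differed at least as much between the saline libraries as between any of the groups. It was taken as the clock contrast: the log2 level of Arntl minus the mean of Nr1d1, Nr1d2, Dbp, Per1, Per2 and Per3, each gene centred on its mean over the 7 libraries. The contrast was -1.74 in saline replicate 1 and 0.79 in saline replicate 2. It was 0.68 and 1.12 at Day 3, and 0.16, -0.76 and -0.25 at Day 8. The span between the saline libraries was therefore 2.53, out of 2.86 over all 7 libraries. Group means were -0.48 ± 1.79 (SD, n = 2) for saline, 0.90 ± 0.32 (n = 2) for Day 3 and -0.28 ± 0.46 (n = 3) for Day 8. The Day 3 and Day 8 values did not overlap, and the saline values lay on either side of all 3 Day 8 values. The contrast is a description of chosen genes and carries no test, and whether the libraries were collected at different hours was not tested.

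**Figure D1:**
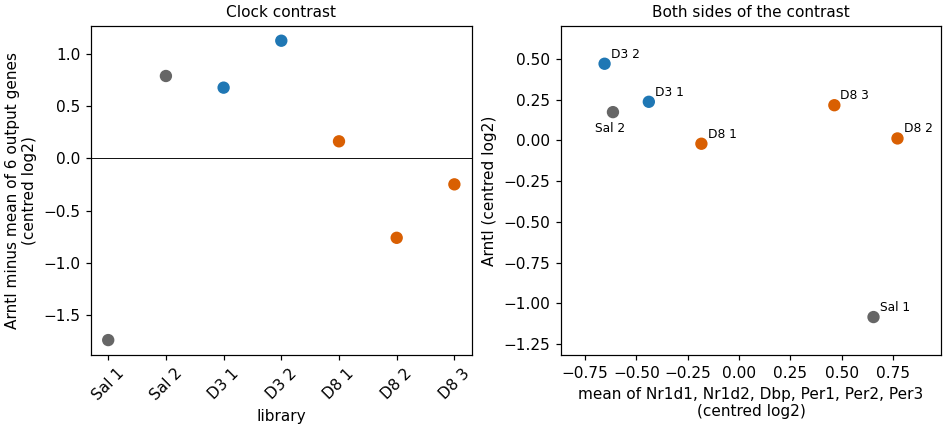
Left, the clock contrast (Arntl minus the mean of 6 output genes, centred log2) in each of the 7 libraries, with 1 dot a library. Right, centred log2 Arntl against the centred mean of Nr1d1, Nr1d2, Dbp, Per1, Per2 and Per3; saline replicate 1 (-1.08 for Arntl, 0.66 for the output genes) lies apart from Day 8 replicates 2 and 3, whose output genes are also above 0 (0.77 and 0.46) while their Arntl is at 0.01 and 0.22. Sal is saline, D3 Day 3 and D8 Day 8.

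The 2 sides of the contrast did not move as mirror images in all libraries. In saline replicate 1 the mean of the output genes stood 0.66 above 0 and Arntl 1.08 below. The output genes were split there: Per2 (1.53), Per3 (1.28) and Nr1d2 (0.96) were high and Nr1d1 was at 0.28. Per1 (-0.05) and Dbp (-0.06) were not raised. Day 8 replicates 2 and 3 had output genes 0.77 and 0.46 above the mean, yet Arntl was 0.01 and 0.22 above it. Saline replicate 2, both Day 3 libraries and Day 8 replicate 1 had output genes 0.18 to 0.66 below the mean, with Arntl from -0.02 to 0.47. Thus 3 libraries shared a high mean of the output genes, and low Arntl was found in saline replicate 1 alone of the 3.

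The genes that made the outputs high also differed. A second contrast, the mean of the Per genes minus the mean of Nr1d1, Nr1d2 and Dbp, was 0.53 and 0.25 in saline, -0.50 and -0.30 at Day 3, and -0.14, 0.01 and 0.16 at Day 8. The saline libraries were above all others and the Day 3 libraries below all others. With Per1 left out, the saline libraries were still highest and Day 3 replicate 2 (-0.19) lay above Day 8 replicate 1 (-0.23). With Dbp left out neither order held. Day 8 replicate 3 then lay slightly above saline replicate 2, and Day 8 replicate 1 below Day 3 replicate 2. Read ratios within a library need no scaling between libraries. Those given here set other genes against each other and did not order the libraries as this contrast did. Reads of Per1 per read of Per2 were 0.134 and 0.267 in saline, 0.49 and 0.223 at Day 3, and 0.495, 0.678 and 1.01 at Day 8. Reads of Per2 per read of Arntl were 11.5 in saline replicate 1 and 1.11 to 2.28 in the other 6 libraries. The saline libraries, which carry the same label, were thus at 11.5 and 1.46.

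**Figure D2:**
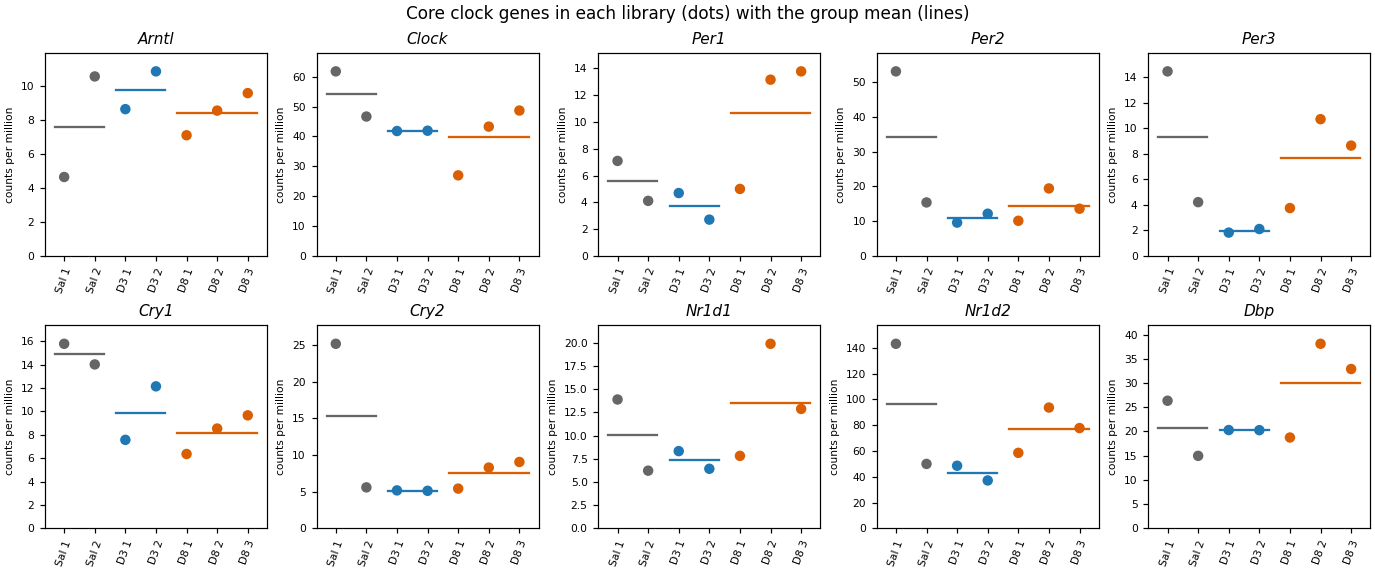
Levels of the 10 core clock genes in CPM (each y axis starts at 0), with 1 dot a library and a line at the mean of each group (2 saline, 2 Day 3 and 3 Day 8 libraries). Per2 and Cry2 stand high in saline replicate 1 alone, Per1 and Dbp in Day 8 replicates 2 and 3, and Per3 and Nr1d2 in all 3 of these libraries.

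Among the activators, Arntl (chr7:113207465-113314126, mm10, plus strand) was read at 4.63 and 10.5 CPM in saline, 8.62 and 10.8 CPM at Day 3, and 7.08, 8.53 and 9.56 CPM at Day 8. Saline replicate 1 was the lowest of the 7 libraries, and the other 6 lay between 7.08 and 10.8 CPM. These are 32 reads against 68 to 108, so that counting error alone is sizeable. Clock (chr5:76209868-76304792, minus strand), its partner, whose RNA cycles weakly in most tissues, was read at 61.8 and 46.7 CPM in saline, 41.8 and 41.9 CPM at Day 3, and 27.0, 43.3 and 48.7 CPM at Day 8. Its range over the 7 libraries, 0.81 on the log2 scale, was wider than that of only 22.8% of tested genes, and it was the steadiest of the members.

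Per1, Per2 and Per3, the repressors that partner the cryptochromes, did not vary together. Per1 (chr11:69095217-69109960, plus strand) was read at 7.09 and 4.11 CPM in saline, 4.69 and 2.71 CPM at Day 3, and 5.0, 13.2 and 13.8 CPM at Day 8. Day 8 replicates 2 and 3 were above all other libraries and Day 8 replicate 1 was not. Per2 (chr1:91415982-91459324, minus strand) was read at 53.1 and 15.4 CPM in saline, 9.58 and 12.1 CPM at Day 3, and 10.1, 19.4 and 13.6 CPM at Day 8. Saline replicate 1 stood above all others here, and its centred log2 level was above that of 97.3% of genes in that library. Per3 (chr4:151003652-151044665, minus strand) was read at 14.5 and 4.21 CPM in saline, 1.83 and 2.11 CPM at Day 3, and 3.75, 10.7 and 8.65 CPM at Day 8. It was high in saline replicate 1 and in Day 8 replicates 2 and 3, and lowest in the Day 3 libraries, which held 19 and 21 of its reads. Its range of 2.53 on the log2 scale was the widest of the 10 and exceeded that of 84.6% of tested genes.

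The cryptochromes, which with the PER proteins block the Arntl and Clock dimer, did not vary together either. Cry1 (chr10:85131700-85185064, minus strand) was read at 15.8 and 14.0 CPM in saline, 7.56 and 12.1 CPM at Day 3, and 6.35, 8.53 and 9.66 CPM at Day 8. The saline libraries agreed closely and both were above all CXCL12 libraries in CPM. Cry2 (chr2:92403646-92434043, minus strand) was read at 25.2 and 5.58 CPM in saline, 5.17 and 5.12 CPM at Day 3, and 5.42, 8.29 and 9.05 CPM at Day 8. Saline replicate 1 again stood apart, and saline replicate 2 was level with Day 3. An antisense gene, D930015M05Rik, shares 295 exon bases with Cry2, far from its 3′ end.

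The Rev-erb genes, repressors of Arntl, were high in the same 3 libraries but in a different order. Nr1d1 (chr11:98767932-98775333, minus strand) was read at 13.9 and 6.22 CPM in saline, 8.33 and 6.42 CPM at Day 3, and 7.81, 19.9 and 12.9 CPM at Day 8. Nr1d2 (chr14:18204054-18239127, minus strand) was read at 143 and 49.9 CPM in saline, 48.5 and 37.1 CPM at Day 3, and 58.5, 93.7 and 77.8 CPM at Day 8. Nr1d1 was highest in Day 8 replicate 2 and Nr1d2 in saline replicate 1. Dbp (chr7:45705088-45710203, plus strand), a direct E-box target that drives D-box genes, was read at 26.3 and 15 CPM in saline, 20.3 and 20.3 CPM at Day 3, and 18.7, 38.1 and 32.9 CPM at Day 8. The Day 3 libraries were equal, and Day 8 replicate 1 was beside them rather than beside the other Day 8 libraries.

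Some of these reads cannot be assigned with certainty. Nr1d1 shares 263 exon bases with Thra on the opposite strand, 225 bases from the 3′ end of Nr1d1, and Dbp shares 539 exon bases with Sphk2, from its very 3′ end. Whether strand was used in counting is not stated, so reads of these partners cannot be told apart. Thra was itself high in the same libraries as the Rev-erb genes, at 33.7 and 16.9 CPM in saline, 13.6 and 13.4 CPM at Day 3, and 14.2, 24.5 and 21.2 CPM at Day 8. Sphk2 was at 57.2 and 40.8 CPM in saline, 42.3 and 47.5 CPM at Day 3, and 35.7, 60.4 and 58.9 CPM at Day 8.

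No member passed in Day 8 against saline. Calling a gene at a 2-fold change and an unadjusted P under 0.05, edgeR (quasi-likelihood, 6 libraries in counts) passed 0 of 10 members, against 2.94% of the 15388 genes tested (453; 1.53% higher and 1.42% lower). Per1 was at 1.18 on the log2 scale (SE 0.53), Dbp at 0.80 (SE 0.39) and Nr1d1 at 0.70 (SE 0.50), with Day 8 above saline. Per2 was at -0.97 (SE 0.51), Cry1 at -0.61 (SE 0.33) and Cry2 at -0.73 (SE 0.59). The differences for Arntl (0.37), Clock (-0.20), Per3 (0.00077) and Nr1d2 (-0.054) were smaller than their standard errors. The lowest adjusted p among the members was 0.956 by edgeR. Values were above 0 for 5 of the 10, as for 49.3% of all tested genes, and the median over the members was -0.026, beside -0.0078 over all.

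These values rest on single libraries. Without Day 8 replicate 1, Per1 (1.5, unadjusted P = 0.0115, adjusted p = 0.42 by edgeR) and Dbp (1.01, unadjusted P = 0.0271) passed, in a fit that called 6.69% of all genes tested. Without saline replicate 1, Dbp passed (1.19, unadjusted P = 0.0467) and Per2, Cry2 and Nr1d2 turned to 0.09, 0.63 and 0.81, with 1.89% of genes called. Without saline replicate 2, Per2 (-1.57, unadjusted P = 0.00776) and Cry2 (-1.42, unadjusted P = 0.0148) were lower and Arntl was higher, with 1527 of 15277 genes called. The sign of Arntl, Per2, Per3, Cry2 and Nr1d2 against saline therefore depends on which saline library is used. Cry1 was the one member whose groups did not overlap, lower in all Day 8 than in all saline libraries; 9.49% of tested genes were without overlap in that direction and 9.27% in the other, 18.8% in all.

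**Figure D3:**
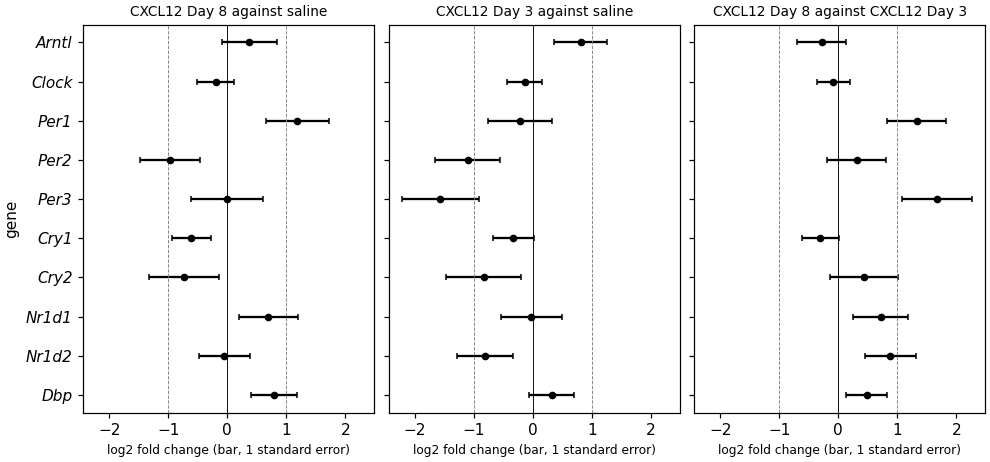
Log2 fold changes of the 10 members in the 3 comparisons, with bars of 1 standard error; dashed lines mark a fold change of 2. Day 8 against saline is from edgeR on 6 libraries and the other comparisons are from limma on 7 libraries. Only Per3 in Day 3 against saline, and Per1 and Per3 in Day 8 against Day 3, passed the rule of fold and unadjusted P.

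In Day 3 against saline, 1 of the 10 members passed and it was lower. Per3 differed by -1.57 on the log2(normalised count + 1) scale (SE 0.65, unadjusted P = 0.0421, adjusted p = 0.623 by limma on all 7 libraries), and so did not pass the correction. Of the 14826 genes tested, 4.49% passed the same rule (666), and 2.61% passed as lower. Both Day 3 libraries (1.83 and 2.11 CPM) were below both saline libraries (4.21 and 14.5 CPM). Without saline replicate 1 the difference was -0.70, and without saline replicate 2 it was -2.46, both in the same direction but of very different size. Per2 (-1.11, SE 0.55), Nr1d2 (-0.81, SE 0.47) and Cry2 (-0.83, SE 0.63) also had negative values, and Arntl a positive one (0.81, SE 0.45). None of these reached the threshold. Values were above 0 for 2 of the 10 (Arntl and Dbp), beside 50.5% of all tested genes, and the median over the members was -0.27, beside 0.0077 over all. Arntl, Per2 and Per3 had groups that did not overlap, as did 46.5% of tested genes with 2 libraries in each group. Arntl was among the 24% higher without overlap, and Per2 and Per3 were among the 22.5% lower.

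The same comparison without saline replicate 2 called Per2, Per3, Cry2 and Nr1d2 lower and Arntl higher, all 5 at an adjusted p under 0.1 by limma, the lowest being 0.0356. In that setting 18.8% of genes tested were called by fold and unadjusted P and 2294 genes in all passed the adjusted threshold, against 0 with all libraries, and the lone saline library is assumed to vary like the other groups. Without saline replicate 1 no member was called. The opposed difference of Arntl from Per2, Per3, Cry2 and Nr1d2 between Day 3 and saline thus depends on saline replicate 1 being in its group. Other repressors had no part in it: with all libraries Nr1d1 was at -0.026 (SE 0.51), Per1 at -0.22 (SE 0.55) and Cry1 at -0.33 (SE 0.35).

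In Day 8 against Day 3, 2 of the 10 members passed, both higher at Day 8. Per1 was 1.33 higher (SE 0.50, unadjusted P = 0.0292, adjusted p = 0.693 by limma). Per3 was 1.68 higher (SE 0.59, unadjusted P = 0.0222, adjusted p = 0.693 by limma). By the same rule 4.65% of the 14826 genes tested passed (689; 2.25% higher and 2.4% lower). All 3 Day 8 libraries were above both Day 3 libraries for each gene. For Per3 the nearest values were 3.75 CPM in Day 8 replicate 1 and 2.11 CPM in Day 3 replicate 2; for Per1 they were 5.0 and 4.69 CPM, which at 48 and 49 reads are indistinguishable. Nr1d2 (0.88, SE 0.43), Nr1d1 (0.71, SE 0.47) and Dbp (0.48, SE 0.35) had positive values that did not pass, and Arntl was at -0.28 (SE 0.41).

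The saline libraries enter this comparison through the normalisation and the estimate of the spread; without saline replicate 1, Per1 was at 1.33 and Per3 at 1.69. Of the 10 members, 7 had values above 0, beside 50.1% of all tested genes, and the median over the members was 0.46, beside 0.0012 over all tested genes. Cry2, Nr1d2, Per1 and Per3 did not overlap between the groups with Day 8 higher, and Arntl with Day 8 lower; of all tested genes 15.7% did so as higher and 16% as lower, 31.7% in all. Without Day 8 replicate 1 the differences were 1.71 for Per1 (unadjusted P = 0.00561) and 2.02 for Per3 (unadjusted P = 0.0114), with adjusted p of 0.117 and 0.152 by limma, where 11.3% of genes tested were called. Without Day 8 replicate 2 or 3 neither passed, with Per1 at 1.16 and 1.1 and Per3 at 1.44 and 1.55. Without Day 3 replicate 2 no member passed either, and without Day 3 replicate 1 only Per1 did.

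No gene of the whole table passed an adjusted p of 0.1 in any of the 3 comparisons by the tests used here. At an unadjusted P under 0.05 there were 658 genes (4.28%) in Day 8 against saline with edgeR, 1090 (7.35%) in Day 3 against saline and 1066 (7.19%) in Day 8 against Day 3 by limma. DESeq2 gave 49 genes at the adjusted threshold in Day 8 against saline, none of them a member.

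**Figure D4:**
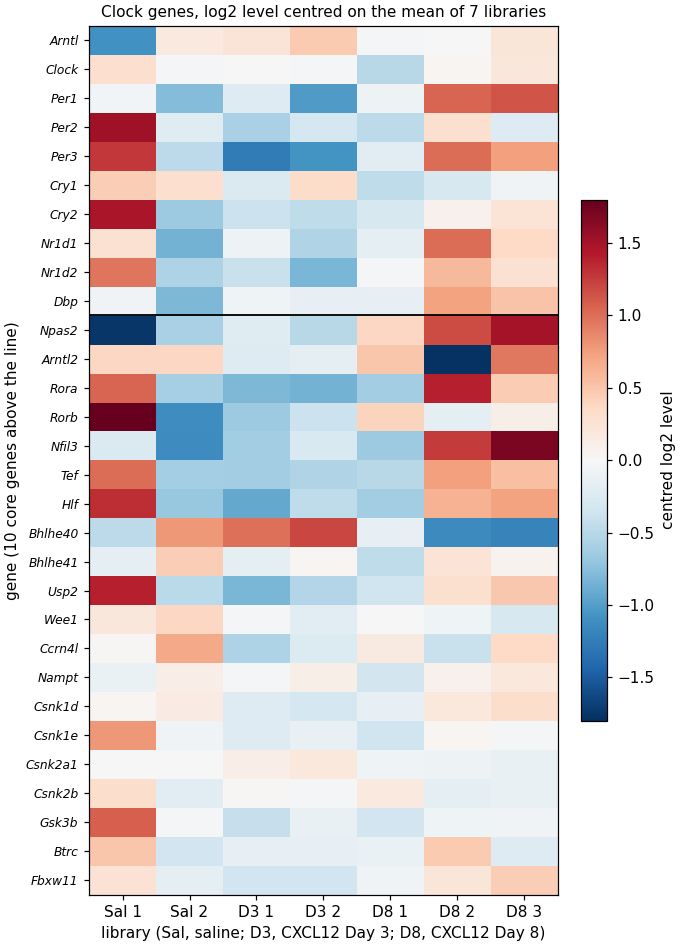
Centred log2 level of the 10 core clock genes (above the line) and of other clock genes (below it) in the 7 libraries; red is above and blue below the mean of the 7 libraries. Saline replicate 1 pairs low Arntl and Npas2 with high Per2, Cry2, Tef, Hlf and Usp2, while Day 8 replicates 2 and 3 pair high Per1, Npas2 and Nfil3 with low Bhlhe40.

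A list of 22 other genes of the clock held 22 tested genes in Day 8 against saline and 20 in the other comparisons. Of these, 2 passed as higher and 0 as lower in Day 8 against saline, where 1.53% and 1.42% of all tested genes did, and 1 and 1 in Day 8 against Day 3, where 2.25% and 2.4% did. In Day 3 against saline 0 passed in either direction by limma, and 0 had an unadjusted P under 0.05. With recovered counts in edgeR, Usp2, an output of the clock that encodes a deubiquitinase, passed as lower in that comparison at -1.42, over a range of -2.07 without saline replicate 2 to -0.19 without saline replicate 1. The fit with recovered counts called 5.15% of genes tested. Their medians were -0.11, -0.40 and 0.29 on the log2 scale in Day 8 against saline, Day 3 against saline and Day 8 against Day 3. The levels of 3 transcription factors separated Day 8 replicates 2 and 3 from the rest.

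Npas2, a paralogue of Clock that can take its place beside Arntl, was read at 0.87 and 1.79 CPM in saline, 1.73 and 1.40 CPM at Day 3, and 2.5, 5.61 and 6.74 CPM at Day 8. All Day 8 libraries were above all others. It was 2.09 higher at Day 8 than in saline (SE 0.69, unadjusted P = 0.0188, adjusted p = 0.956 by edgeR) and 1.37 higher than at Day 3 (SE 0.57, unadjusted P = 0.0428, adjusted p = 0.693 by limma). The call against saline was lost in 4 of 15 alternatives (1.64 to 2.79), among them those without saline replicate 1 (1.64) and without Day 8 replicate 3 (1.82), and the call against Day 3 in 6 of 14 (1.13 to 1.69), among them those without either Day 3 library (1.51 and 1.22) or without Day 8 replicate 2 or 3 (1.31 and 1.13).

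Nfil3, the D-box repressor that opposes Dbp, was read at 11 and 5.9 CPM in saline, 6.61 and 8.93 CPM at Day 3, and 6.35, 27.0 and 36.7 CPM at Day 8. Its Day 8 level was set by replicates 2 and 3, with replicate 1 among the lowest. It was 1.72 higher at Day 8 than in saline (SE 0.70, unadjusted P = 0.0425, adjusted p = 0.956 by edgeR) and at 1.22 against Day 3, which did not pass (SE 0.66). The call against saline was lost in 7 of 16 alternatives (0.99 with replicate number as a block to 2.15), among them those without saline replicate 1 (2.15), saline replicate 2 (1.38), Day 8 replicate 2 (1.62) or Day 8 replicate 3 (1.24). Against Day 3 it passed in 3 of 15, at 1.93 without Day 8 replicate 1 (adjusted p = 0.0786 by limma) and at 2.00 with that library counted with Day 3 (adjusted p = 0.0226 by limma). By fold and unadjusted P, these fits called 11.3% and 12.1% of genes tested. In a plain clock, Nfil3 and Dbp RNA peak at opposite times; here both were highest in Day 8 replicates 2 and 3.

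Bhlhe40, which encodes DEC1, an E-box repressor that also answers to hypoxia and hormones, went the other way. It was read at 15.3 and 35.6 CPM in saline, 34.6 and 41.7 CPM at Day 3, and 14.7, 8.53 and 7.95 CPM at Day 8. Every Day 8 library was below both Day 3 libraries, while saline replicate 1 was level with Day 8 replicate 1. The difference of Day 8 from Day 3 was -1.93 (SE 0.46, unadjusted P = 0.00308, adjusted p = 0.653 by limma), and that from saline, -1.04 (SE 0.49), did not pass; it was -1.56 without saline replicate 1 and -0.22 without saline replicate 2.

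Tef and Hlf, relatives of Dbp that bind the same D-boxes, followed Per3 rather than Dbp. Tef was read at 98.0 and 31.8 CPM in saline, 26.1 and 29.1 CPM at Day 3, and 27.2, 69.5 and 61.7 CPM at Day 8. Hlf was read at 31.0 and 7.37 CPM in saline, 4.89 and 7.12 CPM at Day 3, and 5.83, 16.3 and 17.3 CPM at Day 8. For both, saline replicate 1 was highest and Day 8 replicates 2 and 3 next, and the other 4 libraries were close together. Neither passed in any comparison; without saline replicate 1, Tef and Hlf were 0.91 and 1.01 higher at Day 8 than in saline, against -0.027 and -0.26 with it.

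**Figure D5:**
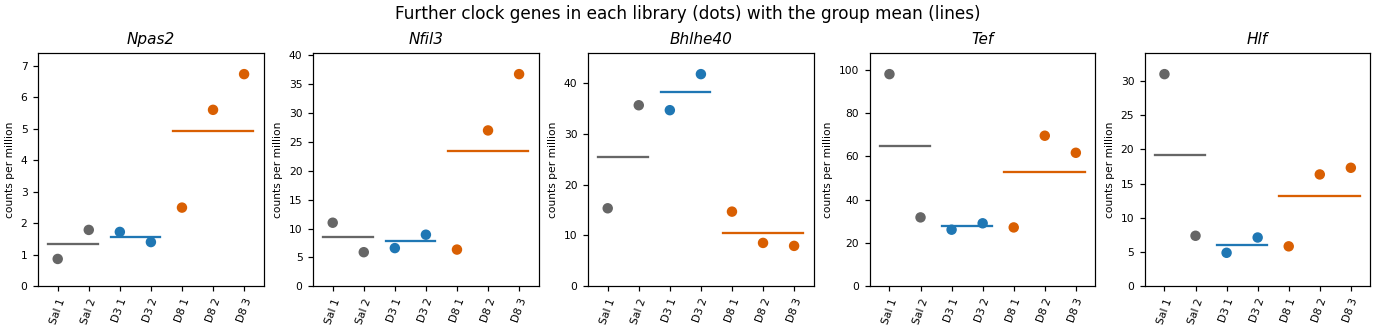
Levels of 5 further clock genes in CPM (y axes start at 0), with 1 dot a library and a line at each group mean. Npas2 and Nfil3 reach 6.74 and 36.7 CPM in Day 8 replicate 3, where Bhlhe40 is at 7.95 CPM; Tef and Hlf are highest in saline replicate 1.

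Genes that respond to signals acting on the clock also varied between libraries. The median centred log2 level of 7 glucocorticoid-responsive genes was -0.08 and -0.30 in saline, -0.92 and -0.84 at Day 3, and -0.31, 1.28 and 1.02 at Day 8. Of the 7, Mt2 passed as higher in Day 8 against saline (1.53% of all tested genes) and 4 passed as higher in Day 8 against Day 3 (Mt1, Mt2, Tsc22d3 and Zbtb16; 2.25% of all). The members did not all follow the median: Mt1 and Mt2 were at 373 and 365 CPM in Day 8 replicate 1, close to the 408 and 383 CPM of replicate 2, and Sgk1 was high in replicate 2 alone (45.1 CPM, against 14.4 to 17.8 CPM elsewhere). Immediate early genes, 10 in number, had a median of 0.89 and 0.83 in the same 2 libraries and of -0.58 to -0.0044 in the others, and Jun, which was highest in saline replicate 1 (197 CPM), passed in Day 8 against Day 3. The cold-inducible genes Cirbp and Rbm3 were lowest there, at a summed 79.4 and 83.8 CPM against 123 to 213 CPM elsewhere. Per1 answers to glucocorticoids and to acute stimuli, and the part of these signals in its level was not tested.

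The medians of hormone-responsive genes also set Day 8 replicates 2 and 3 apart. Of the 6 progesterone-induced uterine genes examined, the 5 tested in every comparison had a median of 1.88 and 2.25 in Day 8 replicates 2 and 3. In the other 5 libraries it was -2.44 to -0.04. Cyp26a1 (67.1 and 163 CPM against 2.46 to 8.32 CPM) was among 3 of the 6 that passed as higher in Day 8 against saline (1.53% of all tested genes). Hand2, also on the list, did not follow the median, at 69.6 CPM in saline replicate 1 and 50.6 and 73.0 CPM in Day 8 replicates 2 and 3. The 5 oestrogen-induced genes had a median of -1.96 and -1.13 in those 2 libraries and of 0.37 to 0.90 in the rest, although C3 was higher in Day 8 replicate 3 (343 CPM) than at Day 3 (264 and 234 CPM). Saline replicate 1, whose clock genes differ in another way, was at -2.44 and 0.88 on these 2 lists. The part of hormonal state in the clock genes was not tested.

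Cell type markers also differed between libraries. In bulk RNA, fewer cells of a type and less RNA per cell cannot be told apart. Myometrial markers, 5 in number, summed to 3776 and 3438 CPM in Day 8 replicates 2 and 3, to 1581 CPM in Day 8 replicate 1, to 2541 and 1546 CPM in saline and to 2627 and 3087 CPM at Day 3; Des and Actg2 passed as higher in Day 8 against saline (1.53% of all tested genes). Stromal markers, 5 in number, summed to 9328 and 10474 CPM in Day 8 replicates 2 and 3 and to 5174 to 8926 CPM elsewhere, and none passed. Dcn (5853 and 6478 CPM) and Vim were highest in those libraries, while Col1a1, Pdgfra and Hand2 did not set them apart. Col1a1 was at 1970 and 2223 CPM in them, against 2424 and 2778 CPM at Day 3. Endothelial markers, 4 in number, summed to 186 and 194 CPM in Day 8 replicates 2 and 3, to 197 CPM in saline replicate 1 and to 78.2 to 126 CPM in the other 4 libraries. None passed. The sum had the same division as Per3, Tef and Hlf. Pecam1, Cdh5 and Tek kept it, but Kdr did not, at 46.6 and 42.4 CPM in Day 8 replicates 2 and 3 and 42.0 CPM in saline replicate 2. Epithelial markers, 5 in number, summed to 351 CPM in Day 8 replicate 2 and 555 to 680 CPM elsewhere.

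The 4 leukocyte markers summed to 174 CPM in saline replicate 1, 113 CPM in saline replicate 2, 51.3 to 53.3 CPM at Day 3 and 42.2 to 105 CPM at Day 8, with Cd68 lower in both comparisons against saline and the T cell marker Cd3e at or near 0 in all libraries. Markers of neighbouring tissues were uneven between libraries. Ovarian markers (5 genes) summed to 1198 CPM in Day 8 replicate 2, 280 and 94.1 CPM in saline, 25.7 CPM in Day 8 replicate 1 and 4.9 to 9.1 CPM in the other 3 libraries, where Fshr was at 0. Adipocyte markers (5 genes) summed to 1925 CPM in saline replicate 2, 1620 CPM in Day 3 replicate 1, 415 CPM in saline replicate 1 and 126 to 197 CPM in the rest, and all 5 passed as lower in Day 8 against saline (1.42% of all tested genes). The oviduct markers Ovgp1 and Foxj1 summed to 235 to 749 CPM, and Foxj1 was at 0 in Day 8 replicate 3. The part of tissue makeup in the clock genes was not tested.

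The genes whose profile over the 7 libraries lay closest to that of Arntl, among 6886 with a mean of at least 20 CPM, were B3galnt2, Slc30a5, Ppp1cb, Tram1 and Bcas2, at a root mean square distance of 0.065 to 0.093 on the centred log2 scale. For Dbp they were Cd59a, Prmt2, Ppp1r14a, Pdlim2 and Egfl7, at 0.096 to 0.17 among 6885 genes. None of these is on the clock lists, but members with a mean under 20 CPM, Nr1d1 and Per1 among them, were not candidates. Of the other members, Nr1d1 was the closest to Dbp at 0.23, a distance that 0.398% of all tested genes undercut. It was followed by Per1 at 0.43 (12.5% of all tested genes), and Per2 and Per3 were at 0.76 and 0.78. Per3 was the member farthest from Arntl, at 1.3. With 7 libraries and a profile of Arntl set largely by 1 of them, such likeness is a description only.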

How the data were processed

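QuantSeq 3′ libraries were aligned with Bowtie2 by the authors and read counts per gene were taken with Bedtools from unique and multiple alignments. The submitters' processing notes name mm10 and also hg19. The authors deposited raw counts per gene for 6 libraries. For Day 3 replicate 1 they deposited log2 values of a normalised count plus 1. Once these were undone and divided by a factor of 1.0515, 97.2% of its 3661 low values lay within 0.1 of a whole read (20% by chance). Multiple alignments and unstated strand use can blur genes that overlap. Groups follow the sample labels. Day 8 against saline was tested with edgeR 4.0.16 (TMM, filterByExpr, quasi-likelihood, 6 count libraries, 3 groups; biological coefficient of variation 42.2%). Because 1 library was not in counts, the other comparisons used limma 3.58.1 on quantile-normalised log2(normalised count + 1) of all 7 libraries, with trend. Tests were two-sided. Calls required a fold change of 2 with unadjusted P under 0.05, and separately a Benjamini-Hochberg adjusted p under 0.1 over all genes tested. CPM used each library's own total. Positions are from GENCODE M21 and promoters from RefSeq. On simulated data for Day 8 against saline, with 14983 genes tested, 100 of 100 genes changed 16-fold, 59 of 100 changed 4-fold and 23 of 14783 unchanged genes passed the adjusted threshold. By the rule of fold and unadjusted P, 531 of the 14783 unchanged genes passed, beside 453 of 15388 genes in the data. Simulated counts were drawn independently by gene, so no library stood apart as saline replicate 1 does. All members and every gene of the lists of other clock genes could be named, with the 5 closest profiles to Arntl and Dbp and up to 3 genes of each other list, taken by smallest P; marker genes given beyond that were chosen after their values were seen. Some other clock genes are not reported here. The members and lists were chosen with earlier results of these data known. Alternatives covered normalisation, filters, the test, the samples and the pairing of replicate numbers.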

Additional observations from a re-analysis of the deposited data

Results flagged for a closer look

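For 2 of the clock genes, both Day 3 libraries lay on one side of the saline mean and all 3 Day 8 libraries on the other. The share of all tested genes with this pattern was not counted, so the 2 genes cannot be set against it. Of all tested genes, 31.7% had Day 3 and Day 8 values without overlap. On the quantile-normalised scale, group means alone lay on opposite sides for further genes, Per1 and Per3 among them. Bhlhe40 was 0.93 above saline at Day 3 and -0.99 from it at Day 8 on the quantile-normalised log2 scale, and the test of the difference between Day 8 and Day 3 gave -1.93 (unadjusted P = 0.00308, adjusted p = 0.653 by limma); it kept its direction and passed at an unadjusted P under 0.05 in all 15 alternatives, from -2.27 to -1.74. Csnk2a1, a subunit of the kinase CK2, was 0.15 above saline at Day 3 and -0.10 from it at Day 8, a difference of -0.25 (unadjusted P = 0.203, adjusted p = 0.757 by limma) that did not pass. Both comparisons share the saline libraries.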

How the results depend on the processing

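With 2 or 3 libraries a group, most counts of calls changed when a single library was left out, and the depth of 6908790 to 12308982 reads left Per3 with 19 to 132 reads. The clock contrast kept its sign in all 7 libraries with library size only, with a pseudocount of 0.1, and without Per1 or Dbp. Per1 and Per3 stayed higher in Day 8 than in Day 3 in all 15 alternatives (0.93 to 1.72 and 1.44 to 2.02), losing the call in 4 and 5 of them; Per3 stayed lower in Day 3 than in saline (-2.46 to -0.70) and lost the call in 9 of 15. Except where stated, the cause was not tested. Counting Day 8 replicate 1 with Day 3, as the name of its table has it, gave 1094 calls in Day 8 against saline (7.45% of genes tested). Of all genes 58 passed at adjusted p, and 2 members were called (Per1 and Dbp, higher). In Day 8 against Day 3 that placement gave 1795 calls (12.1% of genes tested), 1392 genes at adjusted p and 2 members (Per1 and Per3, higher). Of the members, only Per1 then passed the adjusted threshold (adjusted p = 0.0732 by limma). DESeq2 gave 49 genes at adjusted p in Day 8 against saline. By fold and unadjusted P it called 1 member (Per1) and 3.61% of genes tested. Library size only gave 1041 calls in Day 3 against saline (7.02% of genes tested) with 2 members (Per2 and Per3). It moved the median of all genes by -0.26, and 10.1% of its calls were higher, against 41.9% after quantile normalisation. Recovered counts in edgeR also called Per2 and Per3 (2 members) there, where 5.15% of genes tested were called and 21.2% of calls were higher. In Day 8 against Day 3, 68.0% of their calls were higher, against 48.3% after quantile normalisation. No filter and the compared groups alone gave 0 members in Day 3 against saline, and the groups alone gave 3 genes at adjusted p in Day 8 against Day 3.

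Between libraries of the same replicate number, deviations from the group mean correlated at -0.17 to -0.0050. With 2 libraries in a group the deviations mirror each other, so these values cannot show whether horns came from the same animal. With the replicate block there were 157 calls in Day 8 against saline, 425 in Day 8 against Day 3, and 0 members in that comparison and in Day 3 against saline; with the saline numbers exchanged in the block, an alternative chosen after seeing the data, 2 genes passed the adjusted p in Day 8 against saline. Leaving out 1 library at a time gave 229 to 1527 calls, 0 to 15 at adjusted p and 0 to 3 members in Day 8 against saline; 264 to 2890, 0 to 2294 and 0 to 5 in Day 3 against saline; and 294 to 1670, 0 to 484 and 0 to 2 in Day 8 against Day 3. The most calls against saline came without saline replicate 2 and the most in Day 8 against Day 3 without Day 8 replicate 1. The period contrast without Per1 was 1.01 in saline replicate 1, -0.73 in Day 3 replicate 1 and -0.13 in Day 8 replicate 3, and without Dbp 0.30 in saline replicate 1 and -0.13 in Day 3 replicate 2.

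The differences that changed sign did so mainly with 1 library left out. In Day 8 against saline, the ranges over such fits were -0.13 to 1.17 for Arntl, -1.57 to 0.092 for Per2, -0.60 to 1.05 for Per3, -1.42 to 0.63 for Cry2, -0.59 to 0.81 for Nr1d2, -0.59 to 0.91 for Tef, -0.93 to 1.01 for Hlf, -1.16 to 0.62 for Usp2 and -0.39 to 1.15 for Rora. In Day 3 against saline they were -0.31 to 0.030 for Clock, -0.61 to 0.18 for Per1, -1.90 to 0.23 for Cry2, -0.59 to 0.55 for Nr1d1, -0.051 to 0.69 for Dbp, -0.20 to 0.69 for Nfil3 and -1.60 to 0.033 for Tef; in Day 8 against Day 3, -0.23 to 0.12 for Clock and -0.033 to 0.25 for Gsk3b. The ends of most ranges came without saline replicate 1 and without saline replicate 2. Other choices turned small differences. In Day 8 against saline, Per3 became -0.0071 (groups alone), -0.0005 (recovered counts), -0.016 (replicate block), -0.030 (exchanged block) and -0.019 (upper quartile); Nr1d2 became 0.070 (Day 8 replicate 1 with Day 3, and quantile), 0.086 (replicate block) and 0.084 (exchanged block); Tef became 0.066 (quantile) and 0.26 and Hlf 0.065 (Day 8 replicate 1 with Day 3). That placement also turned Nr1d1 to 0.025 in Day 3 against saline and Clock to 0.29 in Day 8 against Day 3, and library size only turned Nfil3 to -0.069 in Day 3 against saline.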
